A study of Mus musculus with 12 samples.

Results

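De novo lipogenesis genes were followed in the cortex of E4FAD mice given docosapentaenoic acid n-6 (DPAn-6) or vehicle. The 10 genes were taken by symbol, as the transcription factors Srebf1 and Mlxipl and 8 of their lipogenic partners and targets, Fasn, Acaca, Acly, Acss2, Scd1, Scd2, Me1 and Thrsp, among 50563 genes in the count table. All 10 had counts in every mouse and passed the filter on low counts. RNA-Seq gave 1 library per mouse for 12 mice, 7 in the control group (CTRL) and 5 in the DPAn-6 group. Every mouse had the genotype APOE4+/+, 5FAD-/+, so both groups carried human APOE4 in place of the mouse gene together with the familial Alzheimer's disease transgenes, whose expression a neuronal promoter drives. No mouse without these alleles was among the samples, and the values therefore describe lipogenic genes on this background only. DPAn-6 mice received 700 mg/kg of DPAn-6, as its ethyl ester, by oral gavage each day for 3 weeks, and CTRL mice were gavaged with a vehicle that held 0.1% of each of 2 antioxidants, which both groups received. Both groups held females and males, which the study gives per group and not per mouse. Ages were 12 months for 2 CTRL and 2 DPAn-6 mice, and 14 months for the other 5 CTRL and 3 DPAn-6 mice.

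De novo lipogenesis builds fatty acids from carbohydrate and acetate carbon. Citrate lyase (Acly) and cytosolic acetyl-CoA synthetase (Acss2) provide acetyl-CoA, acetyl-CoA carboxylase (Acaca) turns it into malonyl-CoA in the committed step, and fatty acid synthase (Fasn) condenses these units into palmitate with NADPH that malic enzyme (Me1) helps to supply. Stearoyl-CoA desaturases (Scd1 and Scd2) then place a double bond, and Scd2 is the form known from brain and myelin. Srebf1 encodes SREBP-1, which is held in the endoplasmic reticulum until it is cleaved and is restrained by polyunsaturated fatty acids in liver, Mlxipl encodes the carbohydrate response factor ChREBP, and Thrsp (Spot 14) is a small nuclear protein tied to lipogenic tissues.

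In GRCm38 the members lie on 6 chromosomes, and the counts cover their annotated exons. Chromosome 11 holds Fasn (ENSMUSG00000025153) at chr11:120805846-120824547, Acly (ENSMUSG00000020917) at chr11:100476353-100528000 and Srebf1 (ENSMUSG00000020538) at chr11:60199089-60222581 on the minus strand and Acaca (ENSMUSG00000020532) at chr11:84129672-84401651 on the plus strand. The desaturases are neighbours, Scd1 (ENSMUSG00000037071) at chr19:44394455-44407879 on the minus strand and Scd2 (ENSMUSG00000025203) at chr19:44293674-44306864 on the plus strand. The others are Acss2 (ENSMUSG00000027605) at chr2:155517948-155585724 and Mlxipl (ENSMUSG00000005373) at chr5:135089890-135138382 on the plus strand, and Me1 (ENSMUSG00000032418) at chr9:86581371-86695953 and Thrsp (ENSMUSG00000035686) at chr7:97412938-97417730 on the minus strand. Srebf1 shares 109 exon bases with Rai1, which lies on the opposite strand and had up to 3360 counts in a mouse.

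Total counts per mouse ranged from 15208803 to 26520251. CTRL replicate 3 stood apart from the other 11 mice across the transcriptome. Its median correlation with the mice of its own group was 0.961, where the other mice had 0.985 to 0.991, and its genes lay a median of 0.41 log2 units from their group, against 0.10 to 0.18 in the others. These deviations fell with the GC content of the transcripts (Spearman's rho = −0.62 across genes, which are not independent replicates), although another CTRL mouse reached −0.53. It was the lowest of the 7 CTRL mice in 39.3% of the 15688 genes tested. Results that rest on it are given with and without it. Markers of the labelled tissue were high in all mice, led by Camk2a and Slc17a7 of excitatory neurons, Slc1a2 and Aldoc of astrocytes and Mbp of oligodendrocytes. Adipocyte markers were at or near 0, with Lep and Cidec at 0 in every mouse, Fabp4 and Cfd near 0 and at most 0.29 CPM (counts scaled by the library total) for the 6 genes together, so the lipogenic counts were not accompanied by fat tissue transcripts.

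RefSeq start sites of GRCm38.p6 were matched for 8 of the 10 genes, in 12 windows of 300 bases. The windows were searched on both strands for the sterol regulatory element TCACNCCAC, the E-box core CACGTG, the CCAAT box and the GC box GGGCGG, the letters commonly linked to SREBP, ChREBP, NF-Y and Sp1. The 250 bases before the start are shown for 4 windows. Those of Fasn and of 1 Srebf1 start were taken because both genes were low in CTRL replicate 3. Both windows of Mlxipl were taken because they held the E-box and the sterol element. Acss2 was also low in CTRL replicate 3, and its window, with 1 CCAAT box and 5 GC boxes, is not shown. Capitals mark the matches.
Fasn, chr11:120824548-120824797, minus strand: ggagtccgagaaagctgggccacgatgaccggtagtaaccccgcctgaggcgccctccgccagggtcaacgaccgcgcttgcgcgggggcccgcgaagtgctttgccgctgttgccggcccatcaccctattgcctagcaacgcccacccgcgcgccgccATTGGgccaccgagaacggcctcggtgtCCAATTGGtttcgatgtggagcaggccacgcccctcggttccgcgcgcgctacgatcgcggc
Srebf1, innermost start, chr11:60210472-60210721, minus strand: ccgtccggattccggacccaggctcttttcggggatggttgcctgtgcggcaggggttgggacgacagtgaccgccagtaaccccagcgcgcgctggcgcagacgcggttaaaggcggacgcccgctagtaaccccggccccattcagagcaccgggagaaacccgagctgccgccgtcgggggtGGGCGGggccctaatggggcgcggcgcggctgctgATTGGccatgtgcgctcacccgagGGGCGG
Mlxipl, first start, chr5:135089640-135089889, plus strand: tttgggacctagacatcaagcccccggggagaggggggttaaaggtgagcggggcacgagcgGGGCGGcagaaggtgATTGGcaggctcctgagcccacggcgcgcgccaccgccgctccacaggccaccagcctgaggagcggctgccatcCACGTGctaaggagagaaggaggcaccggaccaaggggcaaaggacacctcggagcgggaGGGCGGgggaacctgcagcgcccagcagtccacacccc
Mlxipl, second start, chr5:135106641-135106890, plus strand: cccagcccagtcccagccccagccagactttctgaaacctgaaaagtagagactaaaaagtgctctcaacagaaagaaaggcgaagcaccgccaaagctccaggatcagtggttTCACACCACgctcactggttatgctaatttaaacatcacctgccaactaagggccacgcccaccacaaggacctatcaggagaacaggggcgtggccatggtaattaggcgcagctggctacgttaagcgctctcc
Fasn held 3 CCAAT boxes, starting at −90, −62 and −59 relative to the start, and the last 2 overlapped on opposite strands. The Srebf1 window held 1 CCAAT box and 2 GC boxes, and the other 2 Srebf1 windows held 3 GC boxes and 1 CCAAT box. The E-box of Mlxipl stood at −98 from its first start, and the sterol element at −136 from its second start. Across the members, 8 of 12 windows, from 7 genes, held a CCAAT box and 6 of 12, from 5 genes, a GC box, which 37.4% and 35.7% of all 32851 promoter windows held. The E-box was in 7.15% and the sterol element in 1.24% of all windows. Acaca had none of the 4 in its only window, whose first base, chr11:84195188, lies inside the gene. The annotated start of the gene, chr11:84129672, had no window, so the bases before it were not searched. A match is a description of the letters and not of binding.

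Lipogenic transcripts differed widely in level. Expressed as CPM per kilobase of exon (CPM per kb), Scd2 was by far the most abundant member, with 374 ± 19.1 (SD, n = 12), 7.09 times the level of Scd1. A group of enzymes of similar level followed, with 52.8 for Scd1, 45.6 for Fasn and 41.5 for Acly. Neighbours within this group were close, since Scd1 exceeded Fasn in 10 of 12 mice, Fasn exceeded Acly in 11 of 12, and their ranges over mice overlapped. Srebf1 had 14.8 CPM per kb, with a range of 7.26 to 17.8 that reached into that of Me1, which had 8.97. Next came Thrsp with 7.19, Acss2 with 5.27, Acaca with 2.91 and Mlxipl with 1.79. From Acss2 to Mlxipl, each gene exceeded the next in all 12 mice without overlap of their ranges. On this scale the rate-limiting carboxylase Acaca had the lowest level among the enzymes, and of the pair of transcription factors Srebf1 was the more abundant. The length used was the union of all annotated exons, 17074 bases for Acaca, 10163 for Acss2 and 3848 for Me1. Counts per mouse were 682 to 1216 for Acaca, 576 to 1339 for Acss2 and 483 to 939 for Me1. The order of these 3 enzymes therefore depends on that length. Gene counts pool the isoforms of Srebf1, and reads that fit both Scd1 and Scd2, which are close relatives, could not be followed here.

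**Figure D1:**
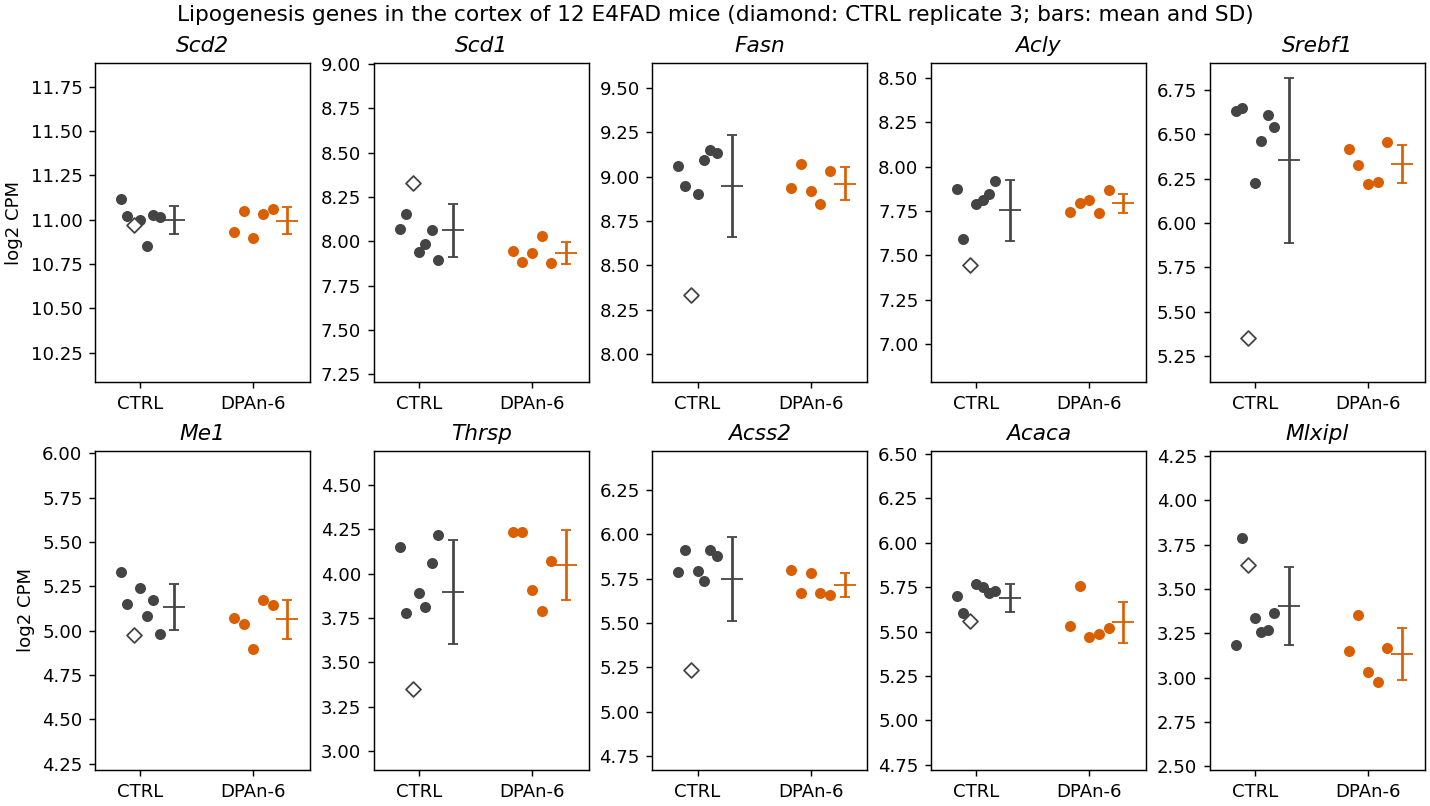
Expression of the 10 genes in each mouse, as log2 CPM on axes of equal length, ordered by their level per kilobase. Points are mice, the open diamond is CTRL replicate 3, and bars give the mean and SD of each group (7 CTRL, 5 DPAn-6). The groups overlap in all 10 genes, and the diamond lies below every other mouse in Srebf1, Fasn, Acss2, Acly and Thrsp and above every other mouse in Scd1.

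DPAn-6 was first compared with CTRL, the question being whether an oral polyunsaturated fatty acid altered lipogenic transcripts in the brain. None of the 10 genes had an adjusted p below 0.05 by edgeR's quasi-likelihood test, where 1.55% of the 15688 genes tested did. At an unadjusted p below 0.05, 2 of 10 passed, Mlxipl and Acaca, both lower in DPAn-6, against 14.5% of all genes in either direction and 9.02% in the lower direction (5.51% in the higher). By limma-voom, DESeq2 and every other alternative, the adjusted count was also 0. The fitted log2 fold change was below 0 for 8 genes and above 0 for Acly and Thrsp, with a median of −0.08 beside a median of 0.00 over all genes tested. The groups overlapped in all 10 genes, while 3.22% of all genes tested did not overlap. In bulk cortex, fewer cells of a type and less RNA per cell cannot be told apart.

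**Figure D2:**
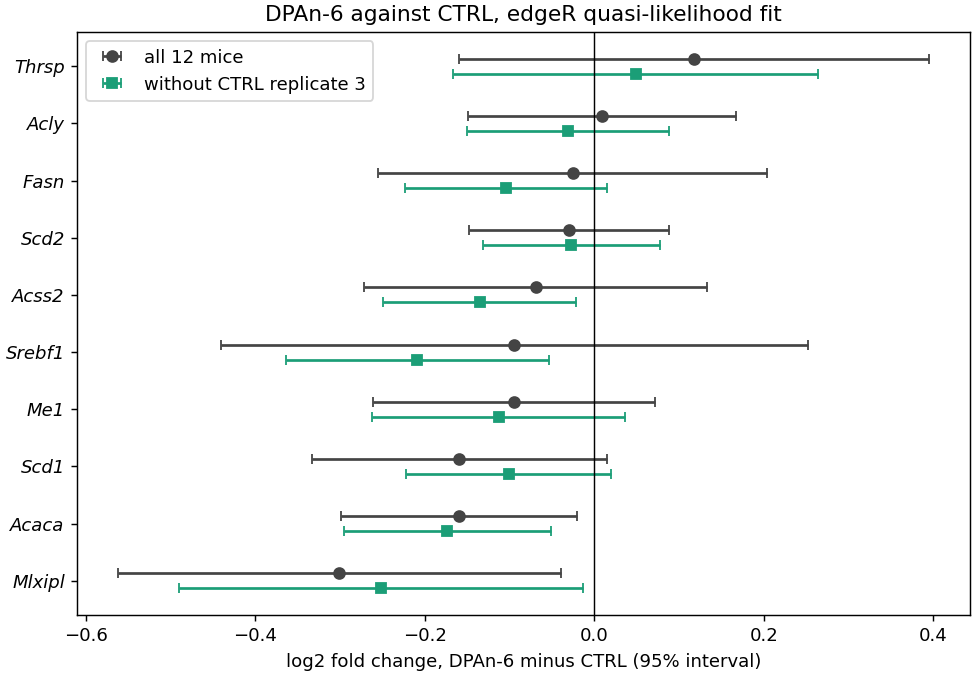
Log2 fold change of each gene, DPAn-6 minus CTRL, with its 95% interval from the edgeR fit, over all 12 mice (circles) and without CTRL replicate 3 (squares). With all mice, only the intervals of Mlxipl and Acaca lie below 0, and without CTRL replicate 3 those of Srebf1 and Acss2 do so too.

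Among the regulators, Mlxipl was the member with the largest fitted difference. Its log2 CPM in CTRL ran from 3.19 to 3.79 with a median of 3.34, and the 5 DPAn-6 mice had 3.15, 3.36, 3.03, 2.97 and 3.17. Of these, 4 lay below every CTRL mouse and DPAn-6 replicate 2 lay among them. The log2 fold change was −0.30 (standard error 0.12, 95% interval −0.56 to −0.04), with an unadjusted p of 0.0269 and an adjusted p of 0.266 by edgeR and a two-sided exact permutation p of 0.0354. These values rest on 119 to 238 counts per mouse. The highest CTRL values, 3.79 and 3.63, belonged to CTRL replicates 2 and 3, which also had a high level of Ttr, the leading transcript of choroid plexus (10.58 and 7.38 log2 CPM, against 0.87 to 3.88 in DPAn-6). CTRL replicate 5, with Ttr at 9.88, had Mlxipl at 3.26. With Ttr as covariate the Mlxipl difference was −0.14 (unadjusted p = 0.377, edgeR), and with the mean of oligodendrocyte markers as covariate −0.18 (unadjusted p = 0.290). The part of choroid plexus or oligodendrocyte RNA in the difference was not tested. The unadjusted p was also above 0.05 in the 14-month mice alone (0.128), by limma-voom with sample weights (0.0624), and when CTRL replicate 2 (0.0550) or DPAn-6 replicate 3 (0.0655) or 4 (0.0753) was left out.

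Srebf1 had 6.22 to 6.65 log2 CPM in 6 CTRL mice and 5.35 in CTRL replicate 3, with a group median of 6.54. In DPAn-6 mice the values were 6.42, 6.33, 6.22, 6.23 and 6.46, all within the CTRL range. The log2 fold change was −0.09 (standard error 0.16, 95% interval −0.44 to 0.25), with an unadjusted p of 0.570. Single mice moved this estimate. Leaving out CTRL replicate 1, 2 or 6 gave −0.054, −0.048 and −0.059, and leaving out DPAn-6 replicate 3 or 4 gave −0.062 and −0.060, none of which had an unadjusted p below 0.05. Among single mice left out, only CTRL replicate 3 brought the unadjusted p below 0.05. Without that mouse the estimate was −0.21 (95% interval −0.36 to −0.05), with an unadjusted p of 0.0116 and an adjusted p of 0.104, and only 1 DPAn-6 mouse then lay below every CTRL mouse. By limma-voom with sample weights over all mice the estimate was also −0.21 (unadjusted p = 0.0143, adjusted p = 0.102). Thrsp, the third regulator, had 3.35 to 4.22 log2 CPM in CTRL and 4.24, 4.23, 3.91, 3.79 and 4.07 in DPAn-6, from 156 to 445 counts per mouse. It was the gene with the largest fitted difference above 0, at 0.12 (95% interval −0.16 to 0.39, unadjusted p = 0.380), and without CTRL replicate 3 it was 0.049 (unadjusted p = 0.638).

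For the enzymes that provide acetyl-CoA and NADPH, no difference passed the test with all mice. Acly had a median of 7.81 log2 CPM in CTRL, from 7.45 to 7.92, and 7.74, 7.80, 7.81, 7.74 and 7.87 in DPAn-6. Its log2 fold change of 0.01 had a 95% interval of −0.15 to 0.17. Acss2 had 5.23 to 5.91 in CTRL and 5.80, 5.67, 5.78, 5.67 and 5.66 in DPAn-6. The lowest value of both genes was again CTRL replicate 3. Its removal changed the log2 fold change of Acss2 from −0.07 (95% interval −0.27 to 0.13) to −0.14 (−0.25 to −0.02, unadjusted p = 0.0228, adjusted p = 0.147 by edgeR). Acss2 shares 197 exon bases with Ggt7 and 395 with Gss on the opposite strand, and the strand setting of the counting is not given in the sources used here. For Me1, which had 4.98 to 5.33 in CTRL and 5.07, 5.04, 4.90, 5.18 and 5.15 in DPAn-6, the fitted difference was −0.09 on the log2 scale (95% interval −0.26 to 0.07).

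Acaca and Fasn, the enzymes of chain synthesis, are given in turn, and a difference between them was not tested. Acaca ran from 5.56 to 5.77 log2 CPM in CTRL, with a median of 5.72, and was 5.53, 5.75, 5.47, 5.49 and 5.52 in DPAn-6. As for Mlxipl, 4 of 5 DPAn-6 mice were below every CTRL mouse and DPAn-6 replicate 2 was not. The log2 fold change was −0.16 (standard error 0.07, 95% interval −0.30 to −0.02), with an unadjusted p of 0.0278, an adjusted p of 0.271 by edgeR and a two-sided exact permutation p of 0.0316. In the 14-month mice alone it was −0.10 (unadjusted p = 0.344), and after correction of each library for transcript length and GC content it was −0.02 (unadjusted p = 0.766). Leaving out CTRL replicate 4, 5 or 7 raised the unadjusted p to 0.0502, 0.0613 and 0.0568, and leaving out DPAn-6 replicate 1, 3, 4 or 5 raised it to 0.0729, 0.0889, 0.0895 and 0.0805. Fasn, with 4935 to 13871 counts in a mouse, had 8.90 to 9.15 log2 CPM in 6 CTRL mice, 8.33 in CTRL replicate 3, and 8.93, 9.07, 8.92, 8.85 and 9.03 in DPAn-6. With all mice its log2 fold change was −0.03 (95% interval −0.25 to 0.20). Without CTRL replicate 3 it was −0.10 (95% interval −0.22 to 0.01, unadjusted p = 0.0825).

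Of the desaturases, Scd2 gave the most precise comparison. It had 10.85 to 11.12 log2 CPM in CTRL and 10.93, 11.05, 10.90, 11.03 and 11.06 in DPAn-6, with no mouse under 30809 counts. The fitted difference was −0.03 on the log2 scale, and its 95% interval of −0.15 to 0.09 is the narrowest of the 10 genes. Scd1 had 7.89 to 8.33 in CTRL, the highest in CTRL replicate 3, and 7.94, 7.88, 7.93, 8.03 and 7.88 in DPAn-6, where all 5 mice were below the CTRL mean of 8.06 and 2 were below every CTRL mouse. The log2 fold change of −0.16 (95% interval −0.33 to 0.02) had an unadjusted p of 0.0705 by edgeR and a two-sided exact permutation p of 0.0947. Without CTRL replicate 3 it was −0.10 (unadjusted p = 0.0956). With that mouse left out, 4 of 10 genes, Acaca, Srebf1, Acss2 and Mlxipl, had an unadjusted p below 0.05, all lower in DPAn-6, where 23.1% of all genes passed in either direction and 12.5% in the lower one. The adjusted count stayed at 0 of 10, against 6.10% of all genes.

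CTRL replicate 3 was the lowest of the 7 CTRL mice in 7 of the 10 genes, where this held for 39.3% of all genes tested. Relative to the median of the other 6 CTRL mice, its log2 CPM was lower by 1.22 for Srebf1, a 2.33-fold difference, by 0.75 for Fasn, 0.62 for Thrsp, 0.60 for Acss2 and 0.38 for Acly. Scd1 and Mlxipl were higher in it, by 0.31 and 0.33, and Scd2 differed by −0.04. The members thus did not shift as a block. For Srebf1, Fasn and Acss2 its gap to the next CTRL mouse passed the critical value of Dixon's test, and the same was true on the low side for 15.1% of all genes tested. Counting either side and any mouse, 3 of 10 members had a mouse apart in CTRL, where 22.7% of all genes did, and 1 of 10 in DPAn-6, Acaca in replicate 2, where 5.28% did. Srebf1 and Fasn are rich in GC, at 58.4% and 57.9% against a median of 49.7% over all genes tested, and Acss2 is not, at 47.8%. Mlxipl is also rich in GC, at 56.6%, and was higher in this mouse. After each library was corrected for length and GC content, an alternative chosen after seeing the data, CTRL replicate 3 was lower by 0.67 for Srebf1, 0.69 for Acss2, 0.37 for Me1, 0.33 for Fasn and 0.33 for Thrsp, and higher by 0.76 for Mlxipl, the largest deviation of the 10 genes on that scale. Removing the mouse lowered the SD within CTRL from 0.46 to 0.16 for Srebf1, from 0.29 to 0.10 for Fasn and from 0.24 to 0.07 for Acss2.

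**Figure D3:**
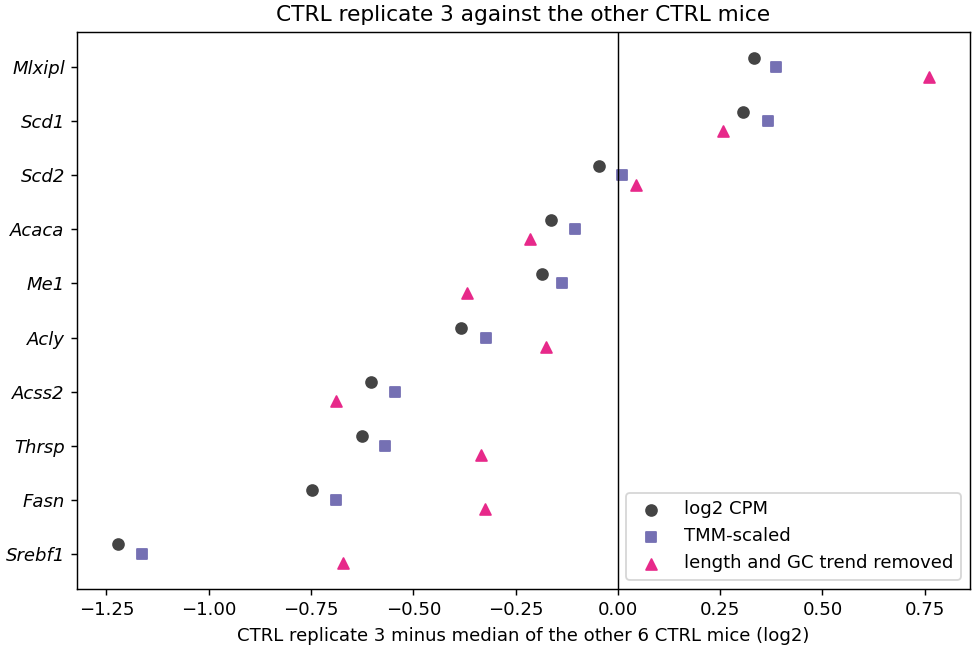
Difference between CTRL replicate 3 and the median of the other 6 CTRL mice for each gene, on the log2 CPM scale (circles), after TMM scaling (squares) and after removal of the trend on transcript length and GC content (triangles). Srebf1 lies lowest on the first 2 scales, at −1.22 and −1.16, and on the third it is joined by Acss2 at −0.69, while Mlxipl and Scd1 lie above 0 on all 3.

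Srebf1 was then related to its partners across mice, since SREBP-1 is known to drive Fasn, Acss2 and the other enzymes in liver. Over 12 mice, 9 pairs were computed. Pearson's r was 0.93 with Fasn (permutation p = 0.00154, adjusted over 9 pairs 0.0111) and 0.91 with Acss2 (permutation p = 0.00246, adjusted 0.0111), and Spearman's rho was 0.71 (p = 0.0112, adjusted 0.101) and 0.64 (p = 0.0295, adjusted 0.133), all by permutation. With Thrsp and Acly r was 0.73 and 0.70 (permutation p = 0.020 and 0.0382, adjusted 0.0600 and 0.0860). The other r were 0.43 for Me1, 0.31 for Acaca, 0.24 for Scd2, −0.20 for Mlxipl and −0.53 for Scd1. CTRL replicate 3 and DPAn-6 replicate 3 lay farthest from the Srebf1 median, and without them r was 0.59 for Fasn, 0.65 for Acss2, 0.16 for Thrsp and 0.06 for Acly. Leaving out CTRL replicate 3 alone gave 0.64 for Fasn (permutation p = 0.0400, adjusted 0.220) and 0.59 for Acss2 (permutation p = 0.0624), and turned the r of Scd1 to 0.53 and that of Mlxipl to 0.54. No pair had an adjusted p below 0.05 over the 11 mice or with each group centred on its mean. The relations of Srebf1 with Thrsp and Acly thus rested on 1 mouse, and those with Fasn and Acss2 kept their sign at a smaller size. CTRL replicate 3 stood apart on the low side in 15.1% of all genes tested. The share of all genes with so high an r to Srebf1 was not counted, so these r are not shown to be particular to its targets.

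**Figure D4:**
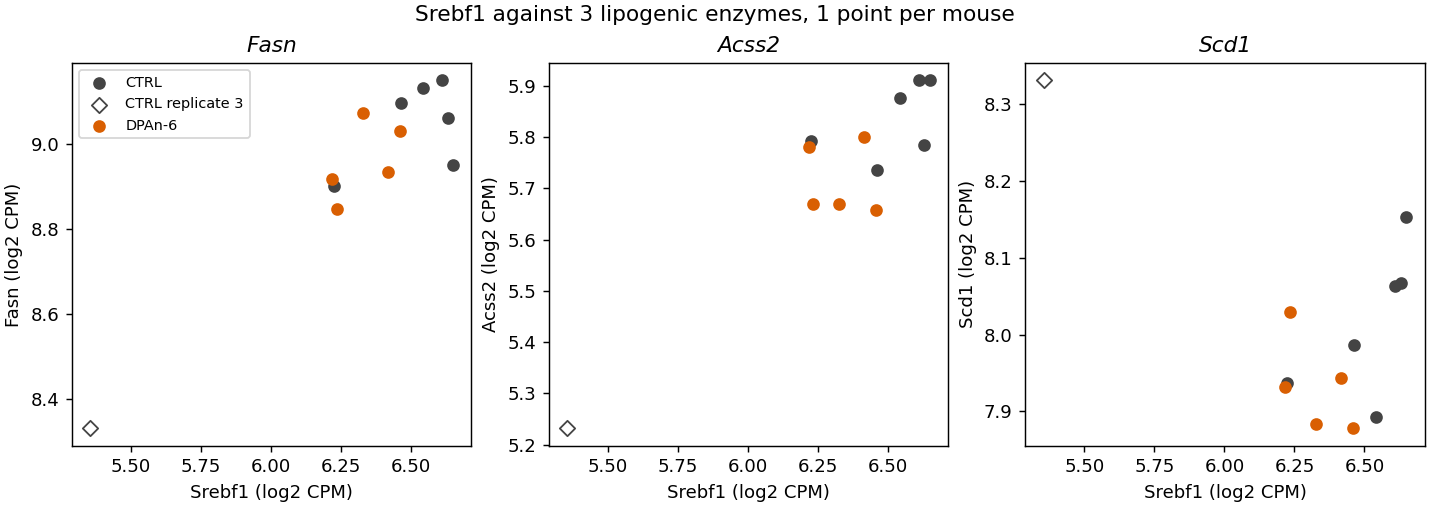
Srebf1 against Fasn, Acss2 and Scd1 in log2 CPM, with 1 point per mouse. CTRL replicate 3 (open diamond) lies apart at 5.35 on the Srebf1 axis, with low Fasn (8.33) and Acss2 (5.23) and high Scd1 (8.33), while the other 11 mice lie between 6.22 and 6.65.

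The genes whose pattern over the 12 mice was most like a member are given as a description. For Srebf1 they were Arhgef4, Nr2f6, Fam213b, Ftl1 and Use1, with r of 0.98 to 0.99, and all 5 were lower in CTRL replicate 3 than in the median of the other CTRL mice, by 0.63 to 1.61. With each group centred on its mean, they were ENSMUSG00000051107, Arhgef4, Bcan, Tmem14c and Lemd2. For Fasn they were Gm6560, Kdm4b, Pcif1, Keap1 and Uap1l1 over all mice (r of 0.97 to 0.98) and Rbm15b, Slc35a2, Nol6, Retsat and Gm6560 after centring, again all lower in CTRL replicate 3. The list changed without that mouse, when Shank3 led for Srebf1 (r = 0.97) and Mfsd13b for Fasn (r = 0.94). Scd2, which did not stand apart in CTRL replicate 3, was most like Ptgr2, Spint1, Decr1, Pycard and Rhoh (r of 0.85 to 0.87), and after centring like Ptpn6, Spint1, Doc2b, Irf8 and Ptgr2. Neither Fasn nor Acss2 was among the 5 genes most like Srebf1.

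Age was compared next, as the mice were 12 or 14 months old. None of the 10 genes differed between ages at an adjusted p below 0.05 (0.00% of 16558 genes tested were called) or at an unadjusted p below 0.05 (1.99%) by edgeR. The largest difference was that of Mlxipl, which was higher by 0.21 at 14 months (95% interval −0.05 to 0.47, unadjusted p = 0.111). For Scd2 the interval was −0.16 to 0.10 and for Me1 −0.19 to 0.18.

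For Thrsp, DPAn-6 and CTRL mice lay in opposite order at the 2 ages. At 12 months the CTRL mice had 4.15 and 4.22 log2 CPM and the DPAn-6 mice 3.91 and 3.79. At 14 months the CTRL mice had 3.78, 3.35, 3.89, 3.81 and 4.06 and the DPAn-6 mice 4.24, 4.23 and 4.07. On this scale the groups did not overlap at either age and lay in opposite order, which held for 1.13% of all genes tested. At 14 months the gap was small, with DPAn-6 replicate 5 at 4.070 and CTRL replicate 6 at 4.061, and after TMM scaling these mice had 4.050 and 4.065, so that the 14-month groups overlapped. The interaction was 0.69 on the log2 scale (standard error 0.22, 95% interval 0.21 to 1.17), with an unadjusted p of 0.00847 and an adjusted p of 0.905 by edgeR. It was the only one of 10 genes with an unadjusted p below 0.05, where 4.26% of all genes passed, and 1 gene in all (0.00637%) had an adjusted p below 0.05. In the 14-month mice alone the log2 fold change of Thrsp was 0.36 (unadjusted p = 0.0289, adjusted p = 0.482), where 8.96% of all genes had an unadjusted p below 0.05. Without CTRL replicate 3 the interaction of Thrsp was 0.60 (unadjusted p = 0.00163). The level of Xist went with age in the DPAn-6 group. Xist, the transcript of the inactive X chromosome, was high (9.15 to 10.57 log2 CPM) in 7 mice and low (0.46 to 2.07) in 5, and in DPAn-6 both 12-month mice were Xist-low and all 3 older mice Xist-high, while both 12-month CTRL mice were Xist-high. With Xist as covariate the interaction of Thrsp was 1.16 (unadjusted p = 0.00114, adjusted p = 0.230). In that fit 5 of 10 genes had an unadjusted p below 0.05, namely Thrsp, Acly, Fasn, Scd1 and Mlxipl, against 17.7% of all genes, and none passed after adjustment. Age and the Xist level cannot be told apart within the DPAn-6 group. Nor can treatment and the Xist level among the 12-month mice.

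**Figure D5:**
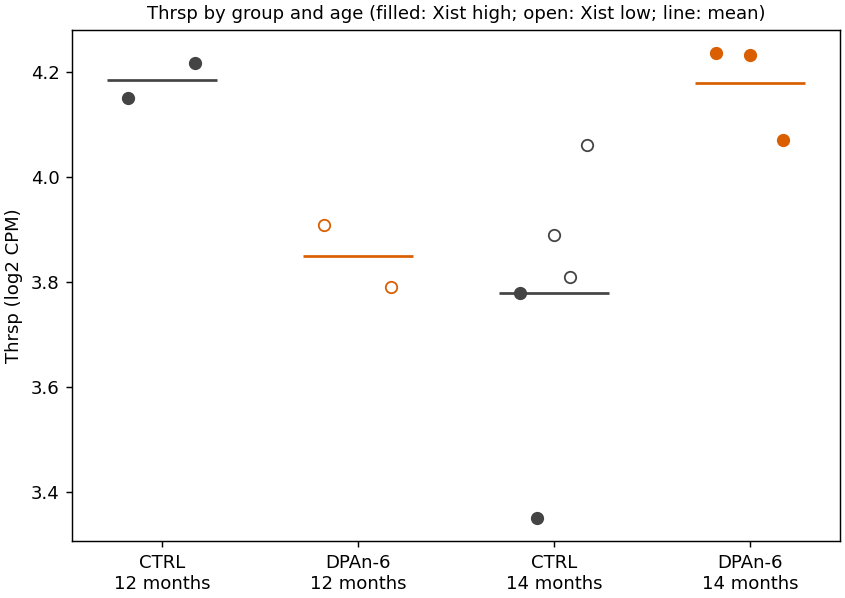
Thrsp in log2 CPM for each mouse by group and age, with a line at each mean. Filled points are Xist-high and open points Xist-low mice. At 12 months both CTRL mice lie above both DPAn-6 mice, at 14 months all 3 DPAn-6 mice lie above all 5 CTRL mice on this scale (1 pair changes order after TMM scaling), and in DPAn-6 the younger mice are the Xist-low ones.

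Other genes of the pathway were read from 7 lists with 63 genes, of which 61 were tested. None had an adjusted p below 0.05, where 1.55% of all genes did, and 7 were lower and 3 higher at an unadjusted p below 0.05, where 9.02% of all genes were lower and 5.51% higher. The single genes that follow are given as values. The list for SREBP processing also held Srebf2, the sterol-directed family member, which is itself processed. Srebf2 and Insig1 led it, with log2 fold changes of 0.09 and 0.03, and 1 of its 6 genes passed the unadjusted test. That was Insig2, which retains SREBP in the endoplasmic reticulum (0.28, unadjusted p = 0.00286, adjusted p = 0.0954). Of 5 tested partners and targets of ChREBP 1 passed, Txnip, an inhibitor of thioredoxin and a known ChREBP target, at −0.28 (unadjusted p = 0.0189, adjusted p = 0.228). Mlx, the dimer partner of ChREBP, was at 0.11, and liver pyruvate kinase (Pklr) was too low to test. Among 7 partners and targets of LXR, Abca1, a cholesterol exporter, was at −0.27 (unadjusted p = 0.0256), and the leading genes Nr1h2 and Rxrb were at 0.01 and 0.09.

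Supply genes for citrate, acetyl-CoA and NADPH were led by Mdh1 and Cs, at 0.20 and 0.09, and of 11 only mitochondrial acetyl-CoA synthetase (Acss1) passed the unadjusted test, at −0.21 (unadjusted p = 0.0289). Among other lipogenic enzymes and regulators, with 11 tested, Acacb, the mitochondrial form of acetyl-CoA carboxylase, had the largest difference of the 7 lists, at −0.57 (unadjusted p = 0.00308, adjusted p = 0.0980), and Scd3 was at 0.38 (unadjusted p = 0.0203). The most abundant genes of that list, Mid1ip1, the partner of Thrsp, and the elongase Elovl6, were at −0.01 and 0.11. In glycerolipid assembly, Gpam and Lpin1 were at −0.27 and −0.14 (unadjusted p = 0.00714 and 0.0400), and the leading genes Agpat3 and Dgat2 at −0.06 and 0.05. Sterol synthesis showed 1 gene in each direction among 14 at an unadjusted p below 0.05, with Lss, which closes the sterol rings, at −0.25 (unadjusted p = 0.0101) and the leading gene Hmgcs1 at 0.01. List medians lay between −0.15 and 0.05, beside 0.00 over all genes tested. In CTRL replicate 3 the mean log2 CPM was below that of the other 11 mice for 5 of the 7 lists, most of all for glycerolipid assembly (4.73 against at least 5.16), while sterol synthesis lay within the range of the other CTRL mice (5.31, range 5.25 to 5.39). These means are not TMM-scaled, and by single genes this mouse was the lowest in CTRL for 39.3% of all genes tested. The shift is therefore not shown to be particular to these lists.

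Markers of several cell types in cortex differed in fitted level between the groups, and their part in the lipogenic values was not tested beyond the covariate fits given above. Oligodendrocytes hold much of the lipogenic machinery of brain, and 10 of their 12 markers were above 0 in fitted log2 fold change (median 0.21), with 6 higher at an unadjusted p below 0.05, as were 5.51% of all genes, and none after adjustment. Mbp, the leading gene, was at 0.22. The sum of the 12 ranged from 5402 to 7154 CPM in CTRL and from 6368 to 7221 in DPAn-6. Astrocyte markers had a median of −0.21, with 5 of 10 lower at an unadjusted p below 0.05, as were 9.02% of all genes, and the leading genes Slc1a2 and Aldoc were at −0.42 and −0.21. Among microglial markers, 3 of 8, Csf1r, Tmem119 and C1qb, were lower at an adjusted p below 0.05 (edgeR), which 1.55% of all genes passed in either direction, with a list median of −0.48 and the leading gene C1qa at −0.46. All 6 meningeal fibroblast markers were below 0 in fitted log2 fold change, with a list median of −0.68 and Slc6a13 at −0.37. Of these, 3, Lum, Col1a2 and Slc22a6, had an adjusted p below 0.05 (edgeR), as did 1.55% of all genes in either direction. Choroid plexus markers summed to 13.2 to 1671 CPM in CTRL and 7.90 to 23.6 in DPAn-6, led by Ttr and Kcnj13. No marker of the remaining lists passed after adjustment. Their medians were 0.03 for excitatory neurons (Camk2a −0.21, Slc17a7 0.00), 0.21 for inhibitory neurons (Sst 0.12, Gad1 0.19), −0.07 for oligodendrocyte precursors (Olig1 0.20, Gpr17 −0.05) and −0.11 for endothelium (Cldn5 0.17, Ly6c1 −0.21). Red cell markers had a median of −0.21, with Hbb-bs at −0.18 and Hba-a1 at −0.29, and striatal markers 0.35, with Ppp1r1b at 0.01.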

How the data were processed

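Per the labels and the study's methods, cortical RNA was poly(A)-selected with a KAPA mRNA kit, and the authors aligned reads with STAR 2.5.3a to GRCm38 and deposited raw counts per gene for 12 mice, without normalization. The strand setting of the counting is not given in the sources used here. The members and all gene lists were chosen with earlier results of these data known. Names, positions and exon lengths came from GENCODE M21 (50339 of 50563 identifiers matched) and promoter windows from RefSeq tables of GRCm38.p6.

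Log2 CPM was taken from the summed gene counts, with 0.5 added. The groups were compared with edgeR 4.0.16 in R 4.3.3 (TMM, filterByExpr, glmQLFit, glmQLFTest, no covariate) over 15688 genes, with Benjamini-Hochberg adjustment. The same test was applied to age (16558 genes) and to the interaction of treatment and age. The study's methods name limma-voom, which was run with limma 3.58.1 as an alternative, as was DESeq2 1.42.0. Intervals are 95% and from the edgeR fit. For single members an exact permutation test (two-sided, 792 splits of the mice, smallest p 0.00126) was added. Correlations used 100000 permutations in Python 3.11.15 with numpy 2.4.6, scipy 1.17.1 and pandas 2.3.3.

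CTRL libraries held 15339098 to 19500154 counts, with a median of 17449553, and DPAn-6 libraries 15208803 to 26520251, with a median of 18400132. Each library is 1 mouse, and no 2 libraries of a group agreed within sampling noise (smallest chi-square per degree of freedom 4.96). All 10 members are named. From each pathway list the 2 genes with the highest level per length and all with an adjusted p below 0.05 were named, from each cell type list the 2 highest, and for Srebf1, Fasn and Scd2 the 5 genes with the highest r, over all mice and with groups centred. Pathway genes with an unadjusted p below 0.05, cell type markers with an adjusted p below 0.05, Lep, Cidec, Xist, Pklr, Shank3 and Mfsd13b were named after their values were seen. Some genes that this rule would name are not reported here. The fits were also run on simulated counts in which no mouse was set apart and no GC trend was present. That run does not show how they perform with a mouse such as CTRL replicate 3. Further alternatives scaled by library totals alone, dropped the filter or asked for 1 CPM in at least 5 mice, took age, Xist, Ttr or the oligodendrocyte mean as covariate, used limma's sample weights, kept the 14-month mice, blocked on the replicate number, or left out mice singly. Added after seeing the data were a correction of each library for transcript length and GC content by an offset, the fit without a block on the same mice, and the other scalings and subsets of the correlations.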

Additional observations from a re-analysis of the deposited data

Results flagged for a closer look

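Of 20 groups of values, 10 genes in each of 2 groups, 4 held a mouse apart from its group by Dixon's test, where chance gives about 1 in 20. Over all genes tested, a mouse stood apart in 22.7% of CTRL groups and in 5.28% of DPAn-6 groups. In 3 of them the mouse was CTRL replicate 3, the lowest of its group, with a gap over range of 0.672 for Srebf1, 0.696 for Fasn and 0.742 for Acss2 (critical value 0.568). After removal of the length and GC trend Srebf1 and Acss2 still passed, at 0.634 and 0.689, Fasn did not, and Scd2 in CTRL replicate 5 (lowest, 0.574) and Mlxipl in DPAn-6 replicate 2 (highest, 0.775) passed only on that scale of the 3 tried. The fourth was Acaca in DPAn-6 replicate 2, the highest of its group at 0.793 (critical value 0.710), which fell to 0.593 after removal of the trend, and without that mouse the log2 fold change of Acaca was −0.21 (unadjusted p = 0.00613, adjusted p = 0.159, edgeR). Thrsp differed between DPAn-6 and CTRL in opposite directions at 12 and 14 months (with overlap at 14 months after TMM scaling), with an interaction of 0.69 on the log2 scale (unadjusted p = 0.00847, adjusted p = 0.905, edgeR). At 12 months both CTRL mice were Xist-high and both DPAn-6 mice Xist-low, so treatment and the Xist level cannot be told apart there.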

How the results depend on the processing

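The count of members with an adjusted p below 0.05 was 0 in all alternatives for treatment, age and the interaction. For treatment, the count of 2 at an unadjusted p below 0.05 was 3 by limma-voom with sample weights (Acaca, Acss2 and Srebf1), and 1 without TMM, without a filter on low counts, with Ttr as covariate, in 14-month mice (Thrsp, higher in DPAn-6, with neither of the 2 genes), under the replicate block and after correction for length and GC, and 0 with the oligodendrocyte mean as covariate, and with single mice left out it ranged from 0 to 4. Of 15688 genes tested, 2280 had an unadjusted p below 0.05 in the main treatment fit, 3870 with sample weights and 2322 without TMM. The number was 1003 with Ttr, 1312 with the oligodendrocyte mean and 3116 after correction for length and GC. It was 3169 of 30214 without a filter and 1429 of 15953 in 14-month mice. Leaving out single mice gave 1758 to 3611. For the interaction the count of 1 was 5 with Xist as covariate, where 4.26% and 17.7% of all genes passed. The fitted difference of Fasn turned above 0 in 14-month mice (0.083), under the replicate block (0.069), without the block on the same mice (0.052), after correction for length and GC (0.053) and with single mice left out, which gave −0.10 to 0.011. Srebf1 turned above 0 in 14-month mice (0.056) and under the block (0.037), Scd2 in 14-month mice (0.017) and after that correction (0.0054), and Acss2 after it (0.0058). Acly turned below 0 by limma-voom with sample weights (−0.048) and with Ttr (−0.094) or the oligodendrocyte mean (−0.074) as covariate, and Thrsp with these covariates (−0.088 and −0.055). With single mice left out Acly ranged from −0.031 to 0.041. The r of Srebf1 with Scd1 and with Mlxipl turned above 0 without CTRL replicate 3, at 0.53 and 0.54, and with single mice left out they started from −0.70 and −0.54. Same-numbered mice did not deviate together in all pairs (r from −0.13 to 0.22, over 0.1 in 1 of 5). The deviations also hold trends of each library with GC content, so this cannot decide whether the numbers mark a pairing. The main fit used none. Under the block the unadjusted count was 1, and without it on the same mice it was 2, where 1992 and 2331 of 15497 genes passed. The cause of these changes was not tested. Thrsp and Mlxipl, with 119 to 445 counts per mouse, are the members where counting error weighs most, and Scd2 is the one where it weighs least.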
